A study of Mus musculus with 13 samples.

Results

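The genes described here are 7 genes of the B lineage, Cd79a, Cd79b, Ms4a1, Pax5, Ighm, Igkc and Jchain, taken by mouse symbol from the 53379 genes of a bulk RNA-seq count matrix. All 7 were found, and all 7 were among the 19984 genes that passed the filter on low counts. The libraries came from CD45- cells sorted from the thymus of wild-type C57BL/6 mice aged 2 months, a fraction of nonhematopoietic cells such as epithelial cells, endothelial cells and fibroblasts. There were 4 libraries at steady state (labelled untreated, and PBS in the design text and in the column names) and 3 libraries each for 3 times after a sublethal dose of total body irradiation (TBI), day 1, day 4 and day 7. The labels do not say whether the libraries of a group came from separate animals. The study's methods describe the bulk counts as per biological replicate, without saying whether animals were pooled. The p-values thus measure the spread between these libraries only. Steady-state libraries are named by their columns, which call them the PBS controls of day 1 (replicate 2), day 4 (replicate 2) and day 7 (replicates 1 and 2).

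B cells recognize antigen with a membrane immunoglobulin, made of paired heavy and light chains, which signals through the CD79A and CD79B proteins. Each chain is assembled from a variable (V) segment, chosen by recombination in each developing cell, and a constant region, and a clone keeps its segments. Plasma cells, the secreting descendants of B cells, make very large amounts of immunoglobulin RNA and J chain, while they lower Pax5 and surface genes such as Ms4a1 (CD20). The normal thymus holds a small population of B cells, mostly in the medulla, and some plasma cells.

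Total counts were 15721866 to 52056896 per library. Levels are given as CPM, counts scaled to a common library size after trimmed mean of M values (TMM) normalization. The stromal markers Pdgfra (616 to 1282 CPM) and Pecam1 (199 to 432 CPM) were present in all 13 libraries. Ptprc, which encodes CD45, was not absent: it was 24.0 to 119 CPM at steady state, 12.7 to 14.99 CPM at day 1, 4.07 to 4.54 CPM at day 4, and 21.6, 606 and 224 CPM in the libraries of day 7. All 14 thymocyte markers examined had counts in every library, with a summed level of 255 to 791 CPM at steady state, 121 to 159 CPM at day 1, 28.1 to 43.4 CPM at day 4, and 229, 5074 and 2228 CPM at day 7. In bulk RNA, fewer cells of a type and less RNA per cell cannot be told apart. The column names close with tags whose meaning is not stated. By their start (k3, kk or neither) the tags sort the libraries into 3 families, and each condition has libraries of at least 2 of them.

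Immunoglobulin and J chain RNA was abundant in this CD45- fraction, whereas few counts fell on Pax5 (3 to 115 a library), Ms4a1 (3 to 62) and Cd79a (4 to 67), and 28 to 599 on Cd79b. On a scale of CPM per kilobase of exon, which allows levels of different genes to be compared, Igkc was 106 to 1163, Ighm 34.1 to 263 and Jchain 9.43 to 73.7 over the 13 libraries. On the same scale Cd79b was 1.06 to 8.58, Cd79a 0.177 to 1.05, Pax5 0.00694 to 0.367 and Ms4a1 0.00995 to 0.205. The lowest Igkc level was thus above the highest level of every other member except Ighm. Library by library, counts of Igkc were 39.5 to 969 times those of Cd79a.

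**Figure D1:**
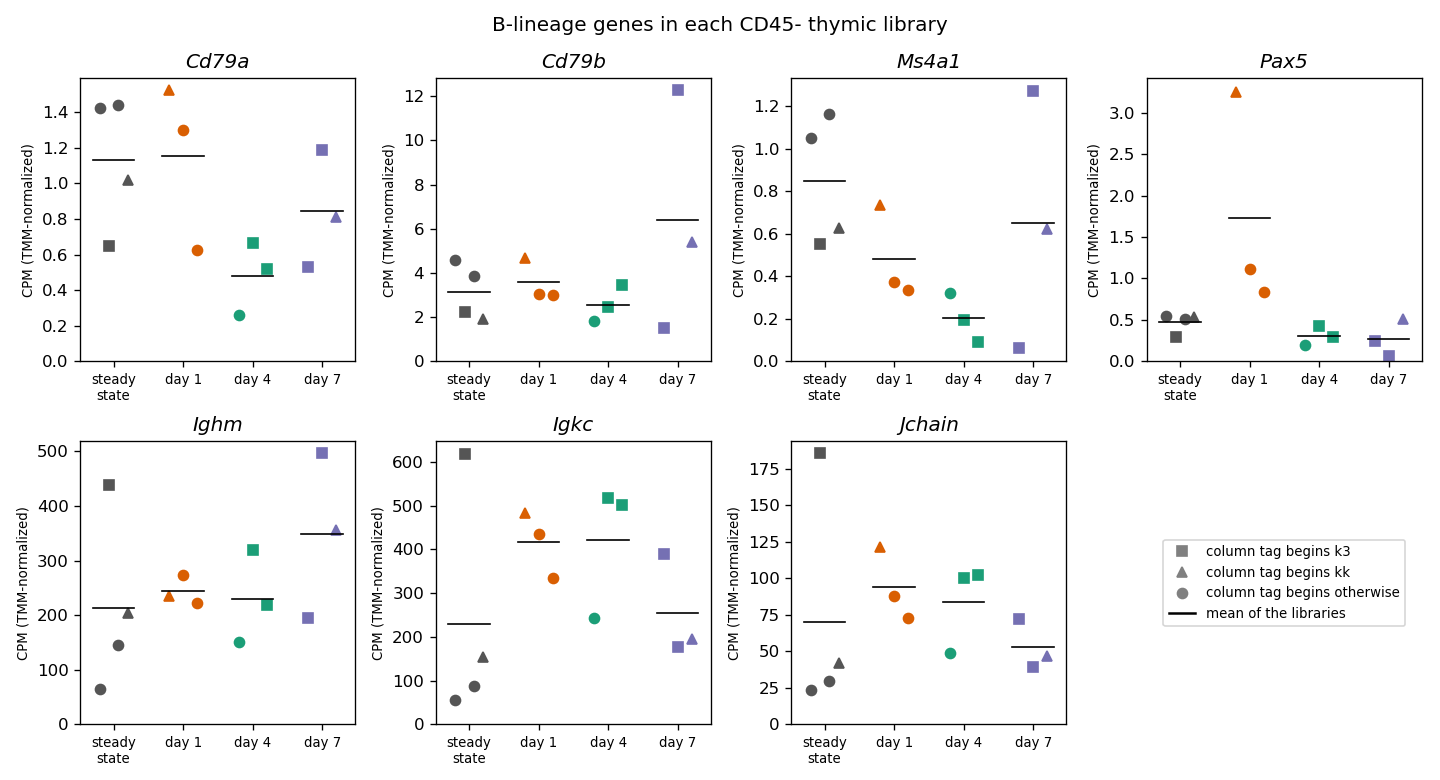
TMM-normalized CPM (vertical axes, linear and starting at 0, a separate scale for each gene) of the 7 genes in each of the 13 libraries, by condition; lines are group means and symbols mark the start of the unexplained tag in the column name. Pax5 is highest in the day 1 libraries, and Igkc and Jchain are far higher in 1 steady-state library than in the other 3.

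Igkc (chromosome 6, 70726435 to 70726966, plus strand, GRCm38, a single exon) encodes the constant region of the kappa light chain. At steady state its level was 56.3 CPM (PBS day 1 replicate 2), 618 CPM (PBS day 4 replicate 2), 87.0 CPM (PBS day 7 replicate 1) and 153 CPM (PBS day 7 replicate 2). It was 484, 434 and 334 CPM at day 1, 243, 517 and 502 CPM at day 4, and 389, 176 and 196 CPM at day 7. All 9 libraries after TBI were above 3 of the 4 steady-state libraries and below the remaining 1, so the groups overlapped. The fitted log2 fold change of day 1 over steady state was 0.87 ± 0.65 (SE; edgeR, adjusted p = 0.527). That value rested on PBS day 4 replicate 2: without it the log2 fold change was 2.08 and passed the threshold (edgeR, adjusted p = 0.0226). With the tag family as a covariate it was 1.80 (edgeR, adjusted p = 0.0471). At steady state the library of the k3 family had 618 CPM, that of the kk family 153 CPM and those of neither 56.3 and 87.0 CPM. At day 4 the libraries of the k3 family had 517 and 502 CPM and the other library 243 CPM. At day 7 the kk library, at 196 CPM, lay between the k3 libraries. Within the neither family, the steady-state levels of 56.3 and 87.0 CPM were below those of 434 and 334 CPM at day 1 and 243 CPM at day 4. Within the kk family, 153 CPM at steady state compared with 484 CPM at day 1 and 196 CPM at day 7. Within the k3 family the order was turned round, with 618 CPM at steady state, 517 and 502 CPM at day 4, and 389 and 176 CPM at day 7. The part of the tags in these levels was not tested beyond that covariate.

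Jchain (chromosome 5, 88519809 to 88527891, minus strand) encodes the small protein that joins IgM pentamers and IgA dimers. Its level was 23.7, 185, 29.4 and 42.2 CPM in the steady-state libraries in the order given for Igkc. It was 121, 87.8 and 72.7 CPM at day 1, 48.9, 100.1 and 102 CPM at day 4, and 71.95, 39.2 and 46.8 CPM at day 7. The same steady-state library was the highest of the 13, and the groups overlapped. The log2 fold change of day 1 over steady state was 0.42 ± 0.60 (SE; edgeR, adjusted p = 0.764), and without PBS day 4 replicate 2 it was 1.56 and passed the threshold (edgeR, adjusted p = 0.0312). Between days 7 and 1 it was -0.83 ± 0.65 (SE; edgeR, adjusted p = 0.477), which with the tag family as a covariate was -1.92 and passed (edgeR, adjusted p = 0.0378).

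Ighm (chromosome 12, 113418558 to 113422730, minus strand) encodes the constant region of the mu heavy chain, found in membrane and secreted IgM. Its level was 64.2, 438, 145 and 204 CPM at steady state. It was 235, 274 and 223 CPM at day 1, 152, 319 and 219 CPM at day 4, and 194, 497 and 356 CPM at day 7. The group means were 213 ± 161 CPM (SD, n = 4), 244 ± 26.3 CPM (SD, n = 3), 230 ± 84.2 CPM (SD, n = 3) and 349 ± 151 CPM (SD, n = 3), respectively. The highest of the fitted differences was day 7 over steady state, with a log2 fold change of 0.71 ± 0.50 (SE; edgeR, adjusted p = 0.653). No difference of Ighm between conditions passed the test. The day 7 libraries with 497 and 356 CPM of Ighm were those with 5074 and 2228 CPM of thymocyte markers, and the library with 194 CPM had 229 CPM. Over the 13 libraries, log2 CPM of Ighm and the thymocyte gene Cd3e had Pearson's r = 0.16. The part of thymocytes in Ighm was not tested.

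Pax5 (chromosome 4, 44524757 to 44710487, minus strand) encodes the transcription factor that sets and keeps B cell identity. Its level was 0.548, 0.300, 0.516 and 0.533 CPM at steady state. It was 3.25, 1.11 and 0.838 CPM at day 1, 0.194, 0.421 and 0.296 CPM at day 4, and 0.246, 0.0615 and 0.515 CPM at day 7. Every day 1 library was above all 10 others. The counts behind these levels were 115, 24 and 40 at day 1 and 12, 3 and 19 at day 7. Pax5 fell between days 1 and 7, with a log2 fold change of -2.68 ± 0.70 (SE; edgeR, adjusted p = 0.0355). It was the only call among the 7 genes in any comparison. Day 1 replicate 1 held the highest level, and without that library the log2 fold change was -1.84 (edgeR, adjusted p = 0.144). The call was also lost without day 1 replicate 2 (adjusted p = 0.0551), without day 7 replicate 1 (adjusted p = 0.0771) and without day 7 replicate 2 (adjusted p = 0.0989), in the same edgeR test. The kk family, the only one with libraries of both days, had 3.25 CPM at day 1 and 0.515 CPM at day 7. The rise from steady state to day 1, 1.87 ± 0.62 on the log2 scale (SE), did not pass in edgeR (adjusted p = 0.146) and passed in DESeq2 (adjusted p = 0.0365). The value of day 4 over day 1 was -2.45 ± 0.70 (SE; edgeR, adjusted p = 0.123), and it too passed in DESeq2 (adjusted p = 0.0167). Of the exonic bases of Pax5, 8.60% overlap Gm12462 or 5730488B01Rik on the opposite strand. Counting did not use strand, and the effect of this overlap on the Pax5 counts was not tested.

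Cd79a (chromosome 7, 24897381 to 24902197, plus strand) and Cd79b (chromosome 11, 106311341 to 106314762, minus strand) encode the signalling partners of the B cell receptor. Cd79a was 1.43, 0.650, 1.44 and 1.02 CPM at steady state, 1.53, 1.30 and 0.628 CPM at day 1, 0.258, 0.667 and 0.518 CPM at day 4, and 0.533, 1.19 and 0.813 CPM at day 7. The day 4 libraries were low but overlapped the other groups, and the log2 fold change of day 4 over steady state was -1.18 ± 0.49 (SE; edgeR, adjusted p = 0.345). Cd79b was 4.61, 2.23, 3.85 and 1.94 CPM at steady state, 4.69, 3.06 and 3.02 CPM at day 1, and 1.81, 2.48 and 3.44 CPM at day 4. At day 7 it was 1.52, 12.3 and 5.42 CPM, so that this group held both the lowest and the highest library of the 13. The log2 fold change of Cd79b for day 7 over day 4 was 1.30 ± 0.60 (SE; edgeR, adjusted p = 0.265). Without day 7 replicate 1 it was 1.77 and passed (edgeR, adjusted p = 0.0444). The day 7 libraries with 12.3 and 5.42 CPM of Cd79b were those with 5074 and 2228 CPM of thymocyte markers, and the library with 1.52 CPM had 229 CPM of them. Over the 13 libraries, log2 CPM of Cd79b and Cd3e, a thymocyte gene, had Pearson's r = 0.74 and Spearman's rho = 0.55, and r = 0.62 over the 11 libraries left without the pair with extreme Cd79b. These values share the libraries and their depth, and the part of thymocytes in Cd79b was not tested.

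Ms4a1 (chromosome 19, 11249675 to 11266241, minus strand) encodes CD20, a surface protein of B cells that plasma cells lack. It was 1.05, 0.550, 1.16 and 0.629 CPM at steady state, 0.735, 0.371 and 0.335 CPM at day 1, 0.323, 0.193 and 0.0926 CPM at day 4, and 0.0615, 1.27 and 0.624 CPM at day 7. The day 4 libraries were all below the steady-state libraries, with counts of 5, 11 and 5 against 13 to 54. The log2 fold change of day 4 over steady state was -2.18 ± 0.81 (SE) and did not pass (edgeR, adjusted p = 0.300). For day 7 over day 4 it was 1.80 ± 0.83 (SE; edgeR, adjusted p = 0.269), and without day 7 replicate 1, which had 3 counts of Ms4a1, it was 2.34 and passed (adjusted p = 0.0436).

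Counted over the 7 genes, 0 were called at day 1 against steady state (edgeR), where 2.35% of all genes tested were called. At an unadjusted p under 0.05 there was 1 member, and DESeq2 called 1, beside 7.00% of all genes in DESeq2. The share of all genes at that unadjusted threshold is not given, so such counts, here and below, cannot be read as an excess. At day 4 against steady state 0 were called by edgeR, beside 0.290% of all genes, with 2 at an unadjusted p under 0.05 and 0 by DESeq2 (3.23% of all genes). At day 7 against steady state 0 were called by edgeR, beside 0.00500% of all genes, with 0 at an unadjusted p under 0.05 and 0 by DESeq2 (5.41% of all genes). Between days 4 and 1 edgeR called 0, beside 1.43% of all genes, with 2 at an unadjusted p under 0.05 and 1 by DESeq2 (4.80% of all genes). Between days 7 and 1, 1 of 7 was called (Pax5, lower at day 7), beside 8.13% of all genes. Between days 7 and 4 edgeR called 0, beside 3.90% of all genes, with 1 at an unadjusted p under 0.05 and 0 by DESeq2 (9.60% of all genes). The median log2 fold change of the members was 0.20, -0.29 and -0.39 at days 1, 4 and 7 against steady state. Over all genes tested it was -0.10, -0.13 and 0.00, respectively.

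**Figure D2:**
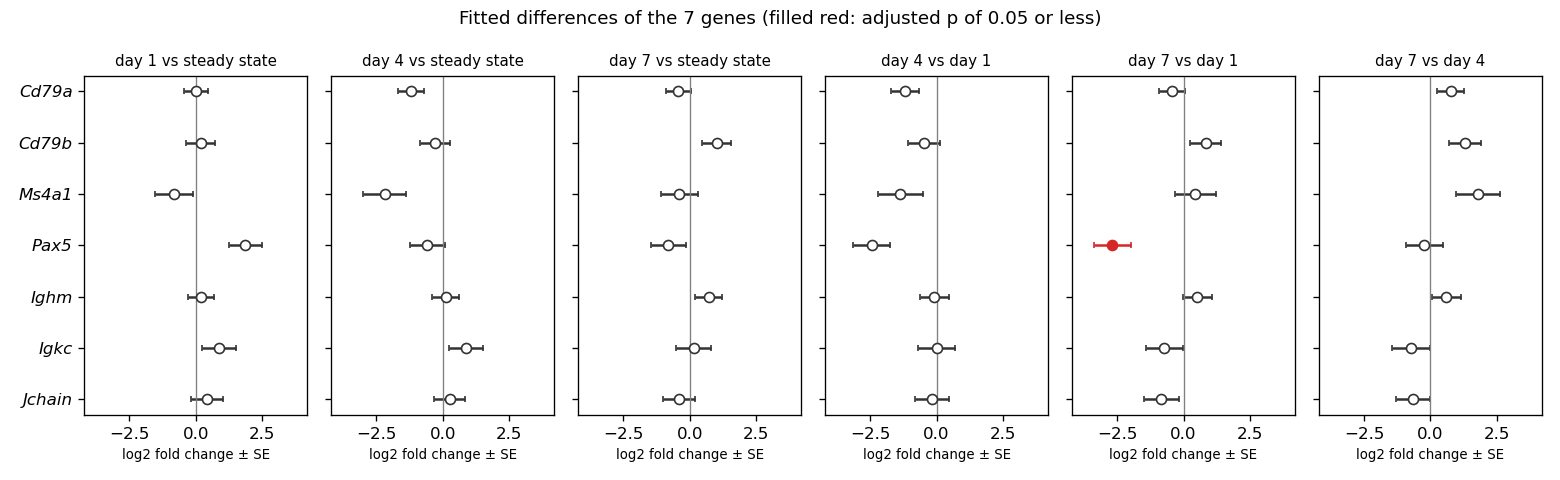
Fitted log2 fold changes (horizontal axes, with SE as bars) of the 7 genes in the 6 comparisons between conditions, from an edgeR fit of all 13 libraries. The only filled red point is Pax5 for day 7 against day 1, at -2.68.

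The wider list of 38 B-lineage genes covered B progenitors, mature B cells, lambda light chains, plasma cells and switched isotypes. Against steady state edgeR called 0 of 38 at days 1, 4 and 7, beside 2.35%, 0.290% and 0.00500% of all genes. DESeq2 called 1, 2 and 6, beside 7.00%, 3.23% and 5.41% of all genes in DESeq2. At an unadjusted p under 0.05 in edgeR there were 8, 8 and 12 of 38, again without a share of all genes at that threshold. Between days 4 and 1 edgeR called 0, beside 1.43% of all genes, with 2 at an unadjusted p under 0.05. DESeq2 called 1 there, beside 4.80% of all genes. Between days 7 and 1, 2 of 38 rose and 2 fell in edgeR, beside 8.13% of all genes called in either direction. Those that rose were Cd37, a tetraspanin of B and T cells (log2 fold change 3.13 ± 0.83, SE; edgeR, adjusted p = 0.0368), and Tnfrsf13b, which encodes TACI, a receptor for the survival factors BAFF and APRIL (3.61 ± 0.80, SE; edgeR, adjusted p = 0.0182). Cd37 was 1.81, 34.2 and 12.7 CPM and Tnfrsf13b was 2.09, 32.5 and 12.5 CPM in the day 7 libraries, and both were highest in the libraries with the most thymocyte RNA. In the same comparison 13 of 14 thymocyte markers rose, and the part of thymocytes in both values was not tested. With 1 of the 6 libraries left out, Cd37 passed the threshold only without day 7 replicate 1, and Tnfrsf13b only without day 7 replicate 1 or 3.

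The genes that fell between days 7 and 1 were Ighe and Ighg3, constant regions of IgE and an IgG subclass. Ighe was 4.36, 1.81 and 0.943 CPM at day 1 and 0, 0 and 0.0271 CPM at day 7. It was already 0 to 0.0351 CPM at day 4, and 0 to 1.53 CPM at steady state. Its summed counts were 238 at day 1 and 1 at day 7, a ratio per size-adjusted library of 306 with a 95% counting interval of 54.4 to 12129. That interval pools the libraries of a day and leaves out the spread between them. The separate fit of all libraries called the fall of Ighe (edgeR, adjusted p = 0.0239). Ighg3 was 1.67, 4.18 and 1.15 CPM at day 1 and 0.103, 0.205 and 0 CPM at day 7, with a log2 fold change of -4.40 ± 1.18 (SE; edgeR, adjusted p = 0.0394). Neither gene had overlapping levels between days 1 and 7. The call of Ighg3 was lost without any 1 of the 6 libraries, and that of Ighe without any of them except day 1 replicates 2 and 3. Between days 7 and 4, 2 of 38 rose, again Cd37 (3.95 ± 0.86, SE; edgeR, adjusted p = 0.0272) and Tnfrsf13b (4.23 ± 0.83, SE; edgeR, adjusted p = 0.0187), beside 14 of 14 thymocyte markers. In that comparison edgeR called 3.90% of all genes, and 1 of 38 fell: Fcer2a, the low-affinity IgE receptor CD23 (-2.97 ± 0.76, SE; edgeR, adjusted p = 0.0492). Fcer2a was 3.48, 3.07 and 4.83 CPM at day 4 and 0.451, 0.819 and 0.163 CPM at day 7, and its call was lost without any 1 of these libraries. Cd37 then passed only without day 7 replicate 1, and Tnfrsf13b only without day 4 replicate 1 or day 7 replicate 1 or 3.

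Ebf1, Xbp1 and Sdc1, genes of the wider list that other cells also express, had high levels. Ebf1, a B progenitor factor also expressed by mesenchymal cells, was 74.4 to 113 CPM. Xbp1, a secretory factor of plasma cells and of many other cells, was 135 to 654 CPM, and Sdc1 (CD138), shared by plasma cells and epithelium, was 110 to 526 CPM. Log2 CPM of Igkc and of Xbp1 had Pearson's r = -0.27 (rho = -0.11, n = 13 libraries; r = -0.33 in 11). With Ebf1 Igkc had r = -0.021 (rho = -0.011; r = -0.093 in 11), and with Sdc1 r = 0.30 (rho = 0.13; r = 0.24 in 11). With Mzb1, a chaperone for immunoglobulin in B and plasma cells, Igkc had r = 0.78 (rho = 0.76, n = 13 libraries; r = 0.76 in 11). Correlations of Igkc with the rest of the plasma cell list are not given. At steady state, PBS day 1 replicate 2 had the lowest Igkc level. It had the highest Tnfrsf17 (1.43 CPM, others 0.145 to 0.516 CPM) and Irf4 (12.1 CPM, others 1.98 to 5.98 CPM) of that list. Derl3 of the same list was lowest there (3.31 CPM, others 3.94 to 5.86 CPM).

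Variable segments gave a view of the immunoglobulin RNA that the members alone do not. Over the 13 libraries, summed counts of the 100 annotated Igkv segments were 894 to 10450, those of the 113 Ighv segments 256 to 2459, and those of the 3 Iglv segments 46 to 2041. The segments of highest mean CPM in each class were Ighv7-1 and Ighv11-2, Igkv15-103 and Igkv14-126, and Iglv1 and Iglv2. Ighv12-3 and Igkv4-91 were added after their values were seen, as a pair with a high correlation. Igkv8-30 led 2 libraries, with 10.2% of Igkv counts in day 4 replicate 3 and 18.1% in day 7 replicate 2. Ighv10-1, Ighv5-17, Ighv6-3, Igkv12-89 and Igkv4-55 each led 1 library. The sequences of these other leading segments are not shown. The last 120 bases of the annotated transcript of the heavy- and kappa-chain segments are shown from GENCODE M21 (GRCm38), 5′ to 3′, since they end in the germline bases that enter the antigen-binding loop CDR3. Capitals mark the codon of the conserved cysteine that precedes that loop.
Ighv7-1: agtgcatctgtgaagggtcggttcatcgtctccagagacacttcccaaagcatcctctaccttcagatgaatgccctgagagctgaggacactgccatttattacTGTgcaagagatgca
Ighv11-2: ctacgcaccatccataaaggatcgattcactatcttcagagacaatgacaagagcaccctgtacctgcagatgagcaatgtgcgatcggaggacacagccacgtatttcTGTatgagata
Ighv12-3: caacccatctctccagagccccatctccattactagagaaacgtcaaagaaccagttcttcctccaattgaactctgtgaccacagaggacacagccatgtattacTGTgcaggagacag
Igkv15-103: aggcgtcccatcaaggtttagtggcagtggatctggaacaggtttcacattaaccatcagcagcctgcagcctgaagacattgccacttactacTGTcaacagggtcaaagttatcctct
Igkv14-126: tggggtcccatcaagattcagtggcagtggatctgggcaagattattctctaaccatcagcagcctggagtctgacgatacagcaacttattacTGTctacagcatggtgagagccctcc
Igkv4-91: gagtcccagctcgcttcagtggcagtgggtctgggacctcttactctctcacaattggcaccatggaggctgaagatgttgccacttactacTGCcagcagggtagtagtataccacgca

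The heavy-chain genes lie on chromosome 12 on the minus strand: Ighv7-1 at 113896408 to 113896946, Ighv11-2 at 114048241 to 114048812 and Ighv12-3 at 114366521 to 114366954. The kappa genes lie on chromosome 6: Igkv15-103 at 68437440 to 68437925 and Igkv14-126 at 67896172 to 67896642 on the plus strand, and Igkv4-91 at 68768555 to 68769103 on the minus strand. Segments of a family are close copies, so reads may be split between them or, where they match several, left uncounted, and the shares below are uncertain to that extent.

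Igkc and the Igkv segments moved together almost exactly. Counts of Igkc were 2.50 to 2.98 times the summed Igkv counts in all 13 libraries, while the Igkc level itself ranged from 56.3 to 618 CPM. Their log2 CPM had Pearson's r = 1.00 and Spearman's rho = 1.00 (n = 13 libraries), and r = 1.00 over 11 libraries. Heavy-chain constant counts were 8.05 to 12.3 times the summed Ighv counts in 12 libraries and 16.8 times in day 7 replicate 2. Igkc counts were 2.37 to 3.63 times those of Jchain at steady state and 3.99 to 5.41 times after TBI, without overlap. Igkc and Jchain had Pearson's r = 0.96 and Spearman's rho = 0.97 over the 13 libraries (r = 0.95 in 11). Igkc and Ighm had r = 0.61 and rho = 0.51, and r = 0.03 without PBS day 1 replicate 2 and PBS day 7 replicate 1, so that relation rested on those libraries. These are descriptions across libraries that share depth and scaling.

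**Figure D3:**
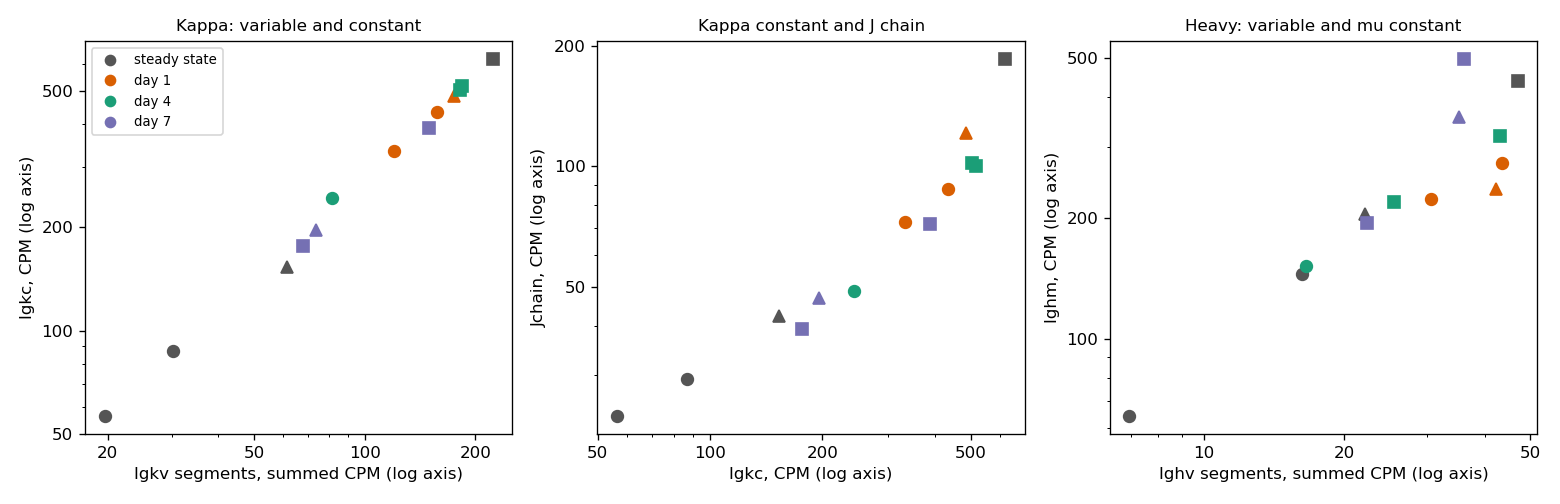
TMM-normalized CPM on log axes, with 1 point for each of the 13 libraries, colored by condition and with symbols for the column tags (square k3, triangle kk, circle neither). Igkc lies along a line with the Igkv sum, Jchain follows Igkc with the steady-state libraries above the others, and Ighm follows the Ighv sum with more scatter.

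Use of V segments differed from library to library. Ighv7-1 was the most counted Ighv segment in 5 libraries and Ighv11-2 in 4. Ighv7-1 took 48.9% of Ighv counts in PBS day 4 replicate 2 (920 of 1881, 95% Wilson interval 46.7% to 51.2%), and 0 of 316 counts in PBS day 1 replicate 2 (interval up to 1.201%). Over the groups its share was 0% to 48.9% at steady state, 5.81% to 12.9% at day 1, 7.48% to 37.1% at day 4 and 0% to 45.3% at day 7. Ighv11-2 took 34.8% of Ighv counts in day 4 replicate 1 (89 of 256, interval 29.2% to 40.8%) and 0.0567% in day 7 replicate 2. Ighv12-3 took 17.5% in PBS day 7 replicate 2 (80 of 457, interval 14.3% to 21.3%) and 0% to 4.19% in the others. Such intervals cover counting error only. For Ighv7-1 the ranges of the 4 conditions overlapped. For Ighv12-3 the ranges after TBI did not, with 0.0668% to 0.641% at day 1, 2.34% to 4.19% at day 4 and 0.681% to 2.20% at day 7, and the steady-state libraries spanned all of them. The Ighv11-2 share was 4.84% to 8.23% at steady state and 4.01% to 9.98% at day 1. At day 4 it was 9.48% to 34.8%, and at day 7 it was 0.0567% to 22.3%. Its steady-state and day 4 ranges did not overlap, and those of the other pairs of conditions did. How many of the other Ighv segments separated by condition was not counted. As few as 1 count lay behind these shares, and they were not tested.

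For 3 heavy-chain segments, the kappa segment whose share was most correlated over the libraries is given here. Igkv15-103 took 36.4% of Igkv counts in PBS day 4 replicate 2, 25.1% in day 4 replicate 2 and 38.6% in day 7 replicate 3, the same libraries in which Ighv7-1 took 48.9%, 37.1% and 45.3% of Ighv counts. Of 58 Igkv segments with at least 10 counts in at least 3 libraries, Igkv15-103 had the highest correlation of its share with that of Ighv7-1 (Pearson's r = 0.96, rho = 0.79, n = 13 libraries; r = 0.87 in 11). An exception was PBS day 1 replicate 2, with 12.4% of Igkv15-103 (111 of 894, interval 10.4% to 14.7%) and 0 counts of Ighv7-1. For Ighv11-2 the highest of 58 was Igkv14-126 (r = 0.95, rho = 0.66, n = 13 libraries), which took 36.0% of Igkv counts in day 4 replicate 1 and 24.4% in day 7 replicate 1. Without those 2 libraries r was 0.61. For Ighv12-3 it was Igkv4-91 (r = 0.99, rho = 0.78, n = 13 libraries; r = 0.74 in 11), which took 40.8% of Igkv counts in PBS day 7 replicate 2 (516 of 1266, interval 38.1% to 43.5%). A further 3 Ighv segments each led 1 library. For Ighv10-1 the highest was Igkv12-89 (r = 0.98, rho = 0.78; r = 0.67 in 11), for Ighv5-17 it was Igkv1-135 (r = 0.86, rho = 0.75; r = 0.69 in 11) and for Ighv6-3 it was Igkv8-21 (r = 0.84, rho = 0.56; r = 0.11 in 11). The highest of 58 correlations is high by choice. As background, the pairs of Ighv11-2 with Igkv14-126 and of Ighv12-3 with Igkv4-91 are known from B-1 cells that bind phosphatidylcholine. The counts are of separate genes in bulk RNA and do not show that 1 cell expressed both chains.

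**Figure D4:**
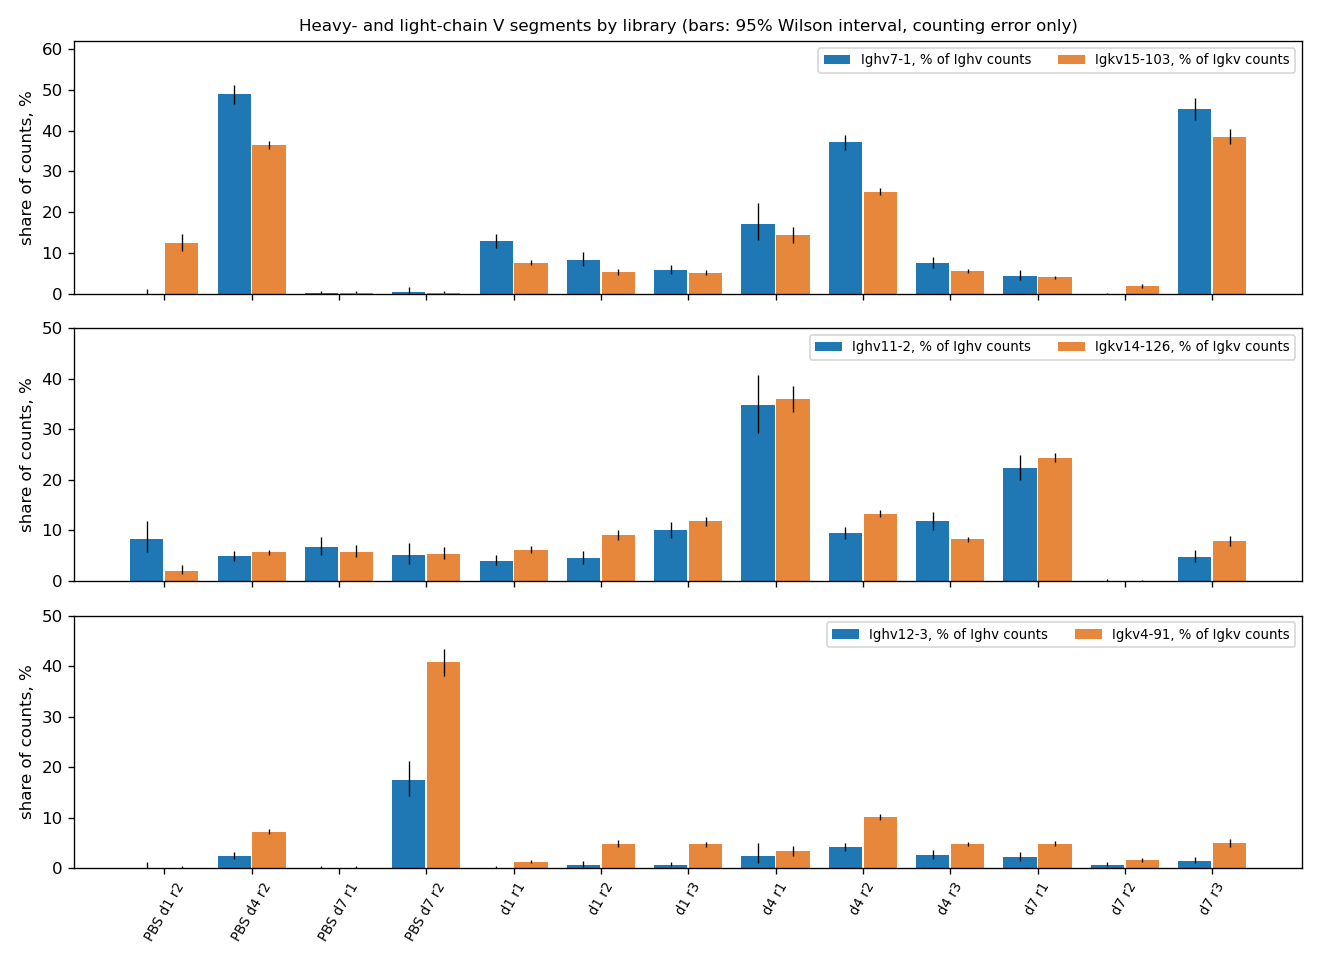
Shares (percent, vertical axes from 0) of 3 Ighv segments among Ighv counts (blue) and of 3 Igkv segments among Igkv counts (orange) in the 13 libraries (d, day; r, replicate), with 95% Wilson intervals for counting error as bars. Apart from PBS day 1 replicate 2 for the top pair, the tall bars of each pair stand in the same libraries, as in PBS day 4 replicate 2 for Ighv7-1 (48.9%) and Igkv15-103 (36.4%).

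The day 1 libraries used the V segments most evenly. The effective number of segments, the inverse of the chance that a pair of counts in a library falls on the same segment, was computed so that depth does not bias that chance. For Igkv it was 16.8, 6.40, 5.65 and 5.09 at steady state, 30.3, 24.7 and 24.7 at day 1, 6.05, 9.94 and 19.8 at day 4, and 8.11, 14.99 and 5.77 at day 7. For Ighv it was 22.4, 3.91, 4.24 and 12.4 at steady state, 25.1, 30.0 and 29.2 at day 1, 6.18, 6.16 and 21.5 at day 4, and 9.38, 18.5 and 4.41 at day 7. In both classes every day 1 library was above all 10 others. Against steady state the exact two-sided permutation test of the means gave p = 0.0571 for Igkv and for Ighv (smallest possible p = 0.0286), and against days 4 and 7 it gave p = 0.100, the smallest 3 against 3 allow. This test was chosen after the values were seen, and over 18 such tests the adjusted p was 0.225 for each. Within the kk tag family the Igkv value was 30.3 at day 1, against 5.09 at steady state and 5.77 at day 7. Within the neither family they were 16.8 and 5.65 at steady state, 24.7 and 24.7 at day 1, and 6.05 at day 4. Igkv totals were 894, 8934, 1401 and 1266 counts at steady state, 6192, 3382 and 5727 at day 1, 1264, 10450 and 9829 at day 4, and 7293, 3311 and 2721 at day 7. All 3 day 1 totals were thus above 3 of the 4 at steady state.

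Isotypes also differed between libraries. Ighm took 69.1% to 94.2% of heavy-chain constant counts in the 13 libraries, and Ighd, the delta constant region carried by naive mature B cells, took 0.0140% to 1.42%. The 4 IgG genes together took 15.2%, 2.33%, 1.21% and 3.21% at steady state, 15.2%, 15.4% and 10.1% at day 1, 2.48%, 6.46% and 7.03% at day 4, and 0.106%, 2.30% and 3.64% at day 7. The day 1 libraries were above those of days 4 and 7 but overlapped steady state, where PBS day 1 replicate 2 had 15.2% (95% Wilson interval 14.0% to 16.3%). The exact two-sided permutation test gave p = 0.100 for day 1 against day 4 and against day 7 (adjusted p = 0.225 over the same 18 tests). Within the kk family the IgG share was 15.2% at day 1, against 3.21% at steady state and 3.64% at day 7. Igha took 3.44% to 24.3% of heavy-chain constant counts at steady state and 6.58% to 15.6% after TBI. The IgG genes are close copies, and how reads were divided between them was not tested.

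**Figure D5:**
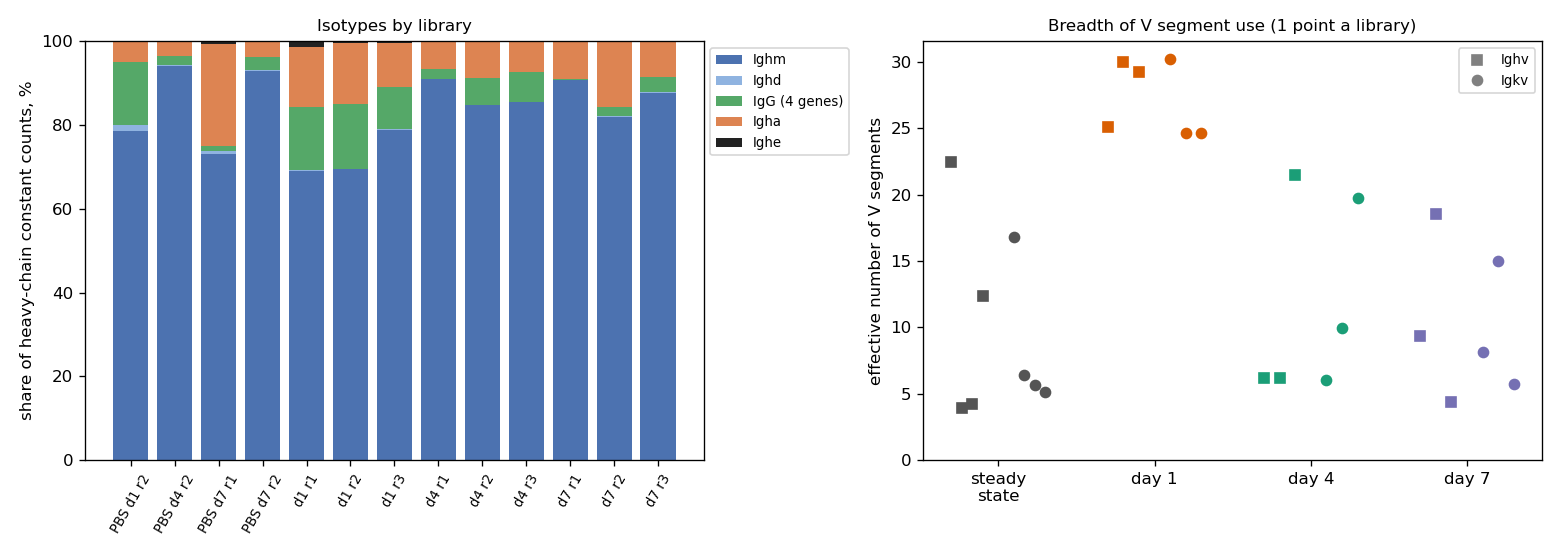
Left, shares of heavy-chain constant counts (percent, stacked) of Ighm, Ighd, 4 IgG genes, Igha and Ighe in each of the 13 libraries (d, day; r, replicate); right, effective number of V segments (axis from 0) with 1 point a library, squares for Ighv and circles for Igkv. The IgG share is 10.1% to 15.4% at day 1, and the day 1 points are above all others at right for each class.

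Kappa constant counts exceeded lambda constant counts in every library, with a ratio of 5.49 to 137. It was 5.49, 7.66, 32.9 and 17.1 at steady state, 12.2, 14.8 and 12.4 at day 1, 47.6, 23.6 and 15.2 at day 4, and 137, 29.6 and 13.9 at day 7. In day 7 replicate 1 the lambda constant counts (139) were below the Iglv counts (233), while Igkc counts (18977) were above Igkv counts (7293). Whether reads of the lambda constant genes were left uncounted was not tested, so the ratios are uncertain to that extent. Iglv1 was the most counted Iglv segment in 11 of the 13 libraries, Iglv2 in 1 (PBS day 7 replicate 1, 46 Iglv counts in all) and Iglv3 in 1 (day 7 replicate 3, 64.1% of 379 counts).

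Relative to Ptprc, the immunoglobulin genes were highest at day 4. Igkc counts were 0.473 to 25.8 times those of Ptprc at steady state, 25.8 to 34.2 times at day 1, 59.7 to 118 times at day 4 and 0.291 to 18.0 times at day 7. Ighm counts were 0.539 to 18.3, 15.7 to 21.6, 37.3 to 72.9 and 0.819 to 8.99 times those of Ptprc, respectively. The day 4 libraries did not overlap the others in either ratio. Ptprc itself was lowest at day 4, at 4.07 to 4.54 CPM, while the Igkc level at day 4 overlapped every other group, so the ratios moved with Ptprc. Log2 CPM of Igkc and Ptprc had Pearson's r = -0.66 (rho = -0.62, n = 13 libraries; r = -0.63 in 11).

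The genes most like each member in log2 CPM over the 13 libraries were looked for among all genes tested. For Igkc they were Pold4, Jchain and Rab1b (Pearson's r = 0.97, 0.96 and 0.95), and for Jchain they were Igkc, Klhdc3 and Avpi1 (0.96, 0.95 and 0.95). For Ighm they were Rrm1, Cstf1 and Mrps22 (0.87, 0.86 and 0.86). For Cd79b they were Galnt7, Pld4 and Bdh1 (0.97, 0.97 and 0.97), and for Cd79a Dnah10, Gm14548 and Aif1 (0.92, 0.90 and 0.90). For Ms4a1 they were Kmo, Gm6377 and Trpv6 (0.93, 0.88 and 0.88), and for Pax5 Ak7, Slfn5 and Xdh (0.93, 0.88 and 0.88). These are the highest of 19984 values over 13 libraries that share their depth and condition, and none but Igkc and Jchain named another member.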

How the data were processed

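The authors used Trimmomatic 0.38 for trimming, STAR 2.7.0e for alignment to GRCm38.p5 (mm10) and featureCounts 1.6.3 for counting on GENCODE M12 at default settings, under which strand is not used and multiply mapped reads are left out (versions from the submitters' processing notes). The deposited values are raw counts per gene and library, 15721866 to 52056896 in total (median 44078906). Symbols, coordinates and sequences came from GENCODE M21 of GRCm38, in which 53274 of 53379 identifiers had a symbol.

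Conditions came from the sample labels. The steady-state columns carry no replicate number of the labels and were used as a group. All 13 libraries entered 1 edgeR 4.0.16 fit (R 4.3.3; TMM, filterByExpr by condition, quasi-likelihood F-test), and genes with a Benjamini-Hochberg adjusted p of 0.05 or less over 19984 genes were called. SEs were computed from the fold change and its F statistic. The fit was also run on simulated counts, with changes set between day 7 and steady state in genes of higher expected counts only. That run does not cover the other comparisons or genes with few counts, such as Pax5, Ms4a1 and Cd79a. Tables, Wilson intervals and plots used Python 3.11.15, pandas 2.3.3, numpy 2.4.6, scipy 1.17.1 and matplotlib 3.10.9.

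Named are the 7 members, genes of the wider list past the threshold or whose level a statement turns on, marker lists as counts or ranges, the 3 genes most like each member (log2 CPM, prior count 0.5) and the 2 most abundant V segments of each class. The members and lists were chosen with earlier results of these data known. Alternatives were RLE scaling, DESeq2 1.42.0, no filter, at least 10 counts in every library, the tag family as covariate, a replicate block, only the groups compared, and each library left out in turn.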

Additional observations from a re-analysis of the deposited data

Results flagged for a closer look

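Dixon's ratio was computed for 51 values of the 4 steady-state libraries, and in 9 of them the highest or lowest library stood apart at its 95% critical value. For normally distributed values chance flags about 1 in 20, or 2.55 of 51. The values were not log-transformed and their distribution was not tested, so 9 cannot be read as an excess. They are also not independent, since several come from the same library. In PBS day 4 replicate 2 these were Jchain (185 CPM, others 23.7 to 42.2 CPM), Iglc1 (69.0 CPM, others 0.559 to 6.43 CPM), the summed Iglv segments (51.0 CPM, others 0.990 to 4.89 CPM), Mzb1 (6.90 CPM, others 1.02 to 1.34 CPM), Sdc1 (448 CPM, others 148 to 178 CPM) and, as the lowest value, Pax5 (0.300 CPM, others 0.516 to 0.548 CPM). Igkc in that library, at 618 CPM against 56.3 to 153 CPM, was just short of the critical value with a ratio of 0.827. In PBS day 1 replicate 2 they were Cxcr5, a chemokine receptor of follicular B cells (4.76 CPM, others 0.425 to 0.990 CPM), and Ighg1 (5.39 CPM, others 0.215 to 0.950 CPM). In PBS day 7 replicate 1 it was Ighe (1.53 CPM, others 0 to 0.219 CPM).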

How the results depend on the processing

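Against the values reported, 520 of 616 log2 fold changes of named genes over the alternatives kept their sign and their side of the threshold, 53 lost a call, 8 gained one and 35, none of them called, turned sign. With the tag family as a covariate, members called were 1 at day 1 and 0 at days 4 and 7 against steady state, and 2 between days 7 and 1, and 1 gene of the wider list was called at day 1. Of all genes that fit called 5.33%, 0.165% and 0% at days 1, 4 and 7 against steady state and 7.09% between days 7 and 1. Turned by that covariate were Cd79a at day 1 (-0.018), Ighm at day 4 (-0.046) and Igkc at day 7 (-0.16) against steady state, Igkc between days 4 and 1 (-1.02) and Ighm between days 7 and 1 (-0.26). DESeq2 called 1 member at day 1 and 1 between days 4 and 1, and 1, 2 and 6 genes of the wider list at days 1, 4 and 7 against steady state, 1 between days 4 and 1 and 8 between days 7 and 1, where it called 14.7% of all genes. Without a filter the wider list gave 1 at day 1 and 5 at day 7 against steady state, 1 between days 4 and 1 and 8 between days 7 and 1. Of all genes that fit called 1.47%, 1.66%, 0.935% and 5.29%, respectively. Where each library had to hold 10 counts of a gene, 0 members (Pax5 was removed) and 2 genes of the wider list were called between days 7 and 1. Beside these, 6.23% of all genes were called, and Igkc was -0.012 between days 4 and 1. With only the groups compared, 0 members were called between days 7 and 1, beside 6.23% of all genes. The wider list then gave 1 between days 4 and 1 (1.42% of all genes) and 1 between days 7 and 4 (2.16%). In that fit Cd79a was -0.039 at day 1 against steady state and Ighm 0.0081 between days 4 and 1. Same-numbered libraries after TBI had correlations of deviations of -0.621 to 0.188. Libraries of different numbers were not compared, so these values cannot show whether the numbers pair the libraries. With the replicate block, members called between days 7 and 1 were 0 (Pax5, adjusted p = 0.143 in edgeR) and the wider list between days 7 and 4 gave 0. Of all genes that block called 3.34% and 0%, respectively.

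With 1 library left out in turn, members called ran from 0 to 2 at day 1 against steady state, 0 to 1 between days 7 and 1 and 0 to 2 between days 7 and 4. For the wider list they ran from 0 to 1 at day 1 and 0 to 3 at day 7 against steady state, 0 to 2 between days 7 and 1 and 0 to 3 between days 7 and 4. Of all genes 1.22% to 4.03%, 0% to 2.99%, 2.28% to 9.40% and 0.0725% to 7.26% were called in these 4 comparisons. Both members gained at day 1 were gained without PBS day 4 replicate 2 (4.03% of all genes), and both between days 7 and 4 without day 7 replicate 1 (7.26%). Log2 fold changes at day 1 against steady state ran from -0.25 to 0.32 (Cd79a), -0.055 to 0.47 (Cd79b) and -0.062 to 0.82 (Ighm). At day 4 they ran from -0.55 to 0.047 (Cd79b) and -0.20 to 0.74 (Ighm), and at day 7 from -1.31 to 0.15 (Ms4a1), -0.30 to 1.36 (Igkc) and -0.71 to 0.73 (Jchain). Between days 4 and 1 they ran from -0.40 to 0.19 (Ighm), -0.16 to 0.34 (Igkc) and -0.33 to 0.15 (Jchain), between days 7 and 1 from -0.094 to 1.30 (Cd79b) and -0.57 to 0.97 (Ms4a1), and between days 7 and 4 from -1.10 to 0.17 (Pax5). Except where the construction shows it, the cause was not tested. Counts were low for Pax5, Ms4a1 and Cd79a, with 3 to 115, 3 to 62 and 4 to 67 a library.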
